A study of Mus musculus with 21 samples.

Results

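The TNF superfamily was examined as 32 protein-coding genes, 12 ligands with symbols beginning Tnfsf and 20 receptors with symbols beginning Tnfrsf, taken from 55487 gene rows of a count table. Messenger RNA had been sequenced from Hepa1-6 tumours, grown in C57BL/6 mice from a mouse hepatoma cell line. The 4 groups were WT with isotype antibody (5 libraries), WT with anti-PD1 plus anti-CTLA4, called the combination here (5), B-cell depletion with isotype (6) and B-cell depletion with the combination (5). All groups carried the same tumour line, and the labels list depletion under genotype without saying how it was done. They give neither age nor sex, and do not say whether libraries came from separate animals, so p-values measure the spread between these samples, which may be technical.

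Ligands of this family are trimeric proteins on or shed from immune cells, and their receptors fall into those that carry a death domain and those that recruit TRAF adaptors to switch on NF-κB. In tumours the family is known for costimulation of T cells through OX40, CD137 and GITR, for survival of B cells through BAFF and APRIL, and for killing through TRAIL. Several members are decoys that bind a ligand without passing on a signal.

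Library totals ran from 9.52 to 19.17 M counts, and levels are CPM, a gene's counts per M counts of the library. Of the 32 members, 30 passed the filter on low counts, while the BAFF receptor Tnfrsf13c (at most 25 counts in a library) and the plasma cell receptor Tnfrsf17 (at most 5) did not. Changes are log2 fold changes ± SE from edgeR's quasi-likelihood test, and members were called where the p, adjusted by Benjamini and Hochberg over 19061 tested genes, was under 0.05. Hepatoma genes marked every library, the summed level of Alb, Apob, Ttr, Hnf4a and Afp being 144.1 CPM or more. The depletion label was checked on B-cell genes: Ms4a1, which encodes CD20, was at 0 in 4 of 6 B-depleted isotype and 3 of 5 B-depleted combination libraries and in no WT library. Summed over 8 B-cell genes the backgrounds overlapped under isotype, at 5.51 to 15.0 CPM with depletion and 8 to 17.1 CPM in WT. Of the 6 tested, 0 were called there. Under the combination the sums were 12.9 to 27.1 and 32.4 to 72.8 CPM, and all 6 were lower with depletion. Going against the label, Ms4a1 stood at 1.57 CPM in B-depleted combination replicate 5, above the highest WT isotype library (1.05 CPM), and 11 plasma cell and immunoglobulin genes summed to 252 and 270.0 CPM in B-depleted isotype replicates 3 and 5. Counts of members are therefore also given without these 3 libraries.

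In WT tumours the combination moved most of the family. Of the 30 members tested, 17 rose and 6 fell (edgeR adjusted p), against 50% of all genes called in this comparison, 25% higher and 25% lower. The members' median change was 0.76 and that of all genes -0.00. T-cell costimulators, the longest role list, made up the largest share of the rises: 9 of 12 rose, 1 fell and 2 did not pass, with a median of 1.09. Only receptors and ligands that passed the count filter enter these counts. Without the 3 doubted B-depleted libraries 24 members were called, a count given without the share of all genes called there.

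**Figure D1:**
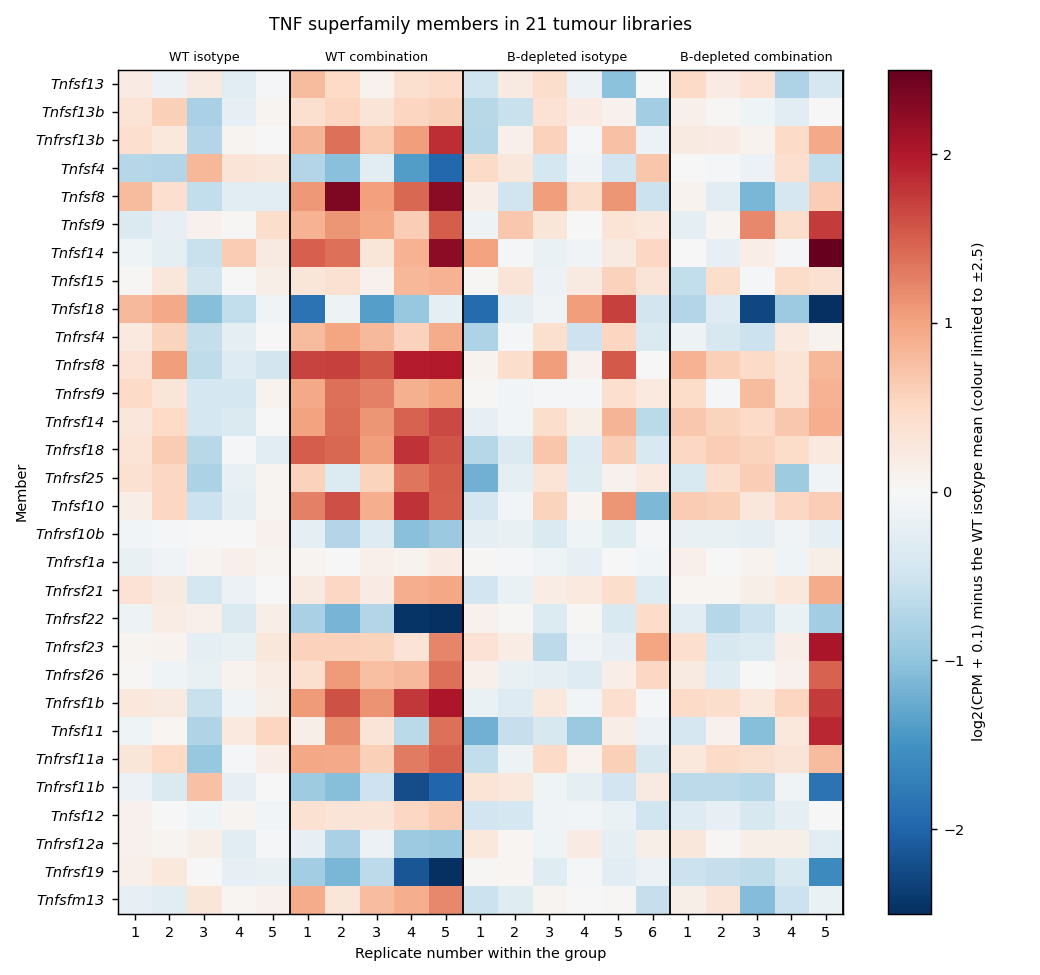
Members (rows, by role) in the 21 libraries (columns, by group and replicate number), as log2(CPM + 0.1) minus the mean of the WT isotype libraries, with colour limited to ±2.5. The WT combination block is red for most members and blue for Tnfrsf11b, Tnfrsf19, Tnfrsf22, Tnfrsf10b, Tnfrsf12a, Tnfsf4 and Tnfsf18, of which Tnfsf18 was not called, while B-depleted combination replicate 5 stands out from the other 4 libraries of its group.

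Receptors of activated lymphocytes were among the clearest rises. Tnfrsf1b, the TNF receptor that lacks a death domain and is carried by T and myeloid cells, was at 97.3, 95.2, 55.3, 76.0 and 89.7 CPM in WT isotype replicates 1 to 5. It was at 169, 246, 178, 278 and 327 CPM in the WT combination. Every combination library lay above every isotype library, a change of 1.56 ± 0.27 (edgeR adjusted p = 0.000235). In B-depleted tumours Tnfrsf1b was at 65.1 (lowest), 77.9 (median) and 109 (highest) CPM under isotype and at 113, 111, 97.3, 118 and 271 CPM under the combination, where replicate 5 was far above the rest. Tnfrsf1b lies at chr4:145213463-145246870 on the minus strand (GRCm38), beside Tnfrsf8 at chr4:145267137-145315164.

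Tnfrsf9 encodes CD137, an inducible costimulator of T and NK cells. Its levels were 47.1, 41.8, 24.99, 25.1 and 36.1 CPM in WT isotype and 65.2, 88.6, 81.0, 62.9 and 67.4 CPM in the WT combination, with no overlap (1.08 ± 0.19, edgeR adjusted p = 0.000257). In B-depleted tumours they were 32.1 (lowest), 33.9 (median) and 45.6 (highest) CPM under isotype and 46.7, 33.0, 58.5, 43.0 and 62.3 CPM under the combination, and the groups overlapped (0.44 ± 0.18, adjusted p = 0.265). Its ligand Tnfsf9 was at 0.939, 1.06, 1.35, 1.26 and 1.71 CPM in WT isotype and 2.36, 2.79, 2.52, 1.96 and 3.71 CPM in the WT combination, again with no overlap (1.09 ± 0.32, adjusted p = 0.00877). Under depletion Tnfsf9 stood at 1.13 (lowest), 1.53 (median) and 2.05 (highest) CPM with isotype and 1.05, 1.31, 2.98, 1.71 and 4.43 CPM with the combination, replicates 3 and 5 being the high ones.

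Tnfrsf18 (GITR) and Tnfrsf4 (OX40), costimulators that regulatory T cells also carry, are neighbours at chr4:156026164-156028895 and chr4:156013843-156016612. Tnfrsf18 was at 2.98, 3.66, 1.41, 2.29 and 1.93 CPM in WT isotype and 6.80, 6.47, 4.91, 8.36 and 7.10 CPM in the WT combination (1.48 ± 0.27, edgeR adjusted p = 0.000317). For Tnfrsf4 the values were 4.53, 5.65, 2.47, 3.26 and 3.86 CPM and 6.64, 7.68, 6.73, 5.75 and 7.36 CPM (0.81 ± 0.24, adjusted p = 0.0102). Neither gene's WT groups overlapped. Under depletion neither gene was called: Tnfrsf18 was at 1.38 (lowest), 1.82 (median) and 3.85 (highest) CPM with isotype and 3.36, 3.62, 3.50, 3.25 and 2.79 CPM with the combination (0.50, adjusted p = 0.382). Tnfrsf4 was at 2.19 (lowest), 3.29 (median) and 5.58 (highest) CPM and 3.46, 2.85, 2.60, 4.55 and 4.07 CPM there (-0.03, adjusted p = 0.963). Whether the 2 genes differ in response was not tested. Regulatory T-cell markers moved alongside in WT tumours, 3 of 4 rising with a summed level of 34.2 to 89.7 CPM in isotype and 101.0 to 161.5 CPM in combination libraries; their part in these changes was not tested.

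Neither ligand of this pair was called higher. Tnfsf4 (OX40 ligand) fell in WT tumours, from 11.7, 11.6, 34.3, 24.1 and 23.7 CPM to 11.6, 9.26, 16.0, 7.30 and 4.89 CPM (-1.09 ± 0.34, edgeR adjusted p = 0.0121). Its groups overlapped, with isotype replicates 1 and 2 inside the combination range and replicate 3 the highest, and without that replicate 3 the adjusted p was 0.0556. In B-depleted tumours Tnfsf4 was at 13.8 (lowest), 20.8 (median) and 31.4 (highest) CPM under isotype and 19.5, 18.7, 17.3, 26.0 and 12.6 CPM under the combination. Tnfsf18 (GITR ligand) was sparse and scattered, at 2.65, 2.93, 0.647, 0.916 and 1.38 CPM in WT isotype and 0.337, 1.33, 0.503, 0.712 and 1.24 CPM in the WT combination (-1.02 ± 0.63, adjusted p = 0.187). With depletion it was at 0.313 (lowest), 1.30 (median) and 5.04 (highest) CPM and 0.840, 1.16, 0.223, 0.731 and 0.0714 CPM (-1.75 ± 0.66, adjusted p = 0.233), and at these levels a library holds between 1 and 85 counts.

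Tnfrsf14 encodes HVEM, which binds the ligand LIGHT and the inhibitory receptor BTLA. In WT isotype it was at 29.7, 34.5, 17.99, 18.9 and 24.5 CPM and in the WT combination at 49.0, 64.5, 52.1, 67.7 and 77.2 CPM, with no overlap (1.33 ± 0.23, edgeR adjusted p = 0.000242). B-depleted libraries held 15.2 (lowest), 25.1 (median) and 44.2 (highest) CPM under isotype and 38.8, 35.7, 33.9, 38.8 and 45.9 CPM under the combination (0.53 ± 0.22, adjusted p = 0.273). LIGHT itself, Tnfsf14, rose in WT tumours by 1.42 ± 0.51 (adjusted p = 0.0274), from 1.31 ± 0.457 to 3.47 ± 1.78 CPM (SD, n = 5 each). That call was lost without WT isotype replicate 1 (0.0528), 2 (0.0561) or 3 (0.0676) or WT combination replicate 5 (0.0996).

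CD30 and its ligand, Tnfrsf8 and Tnfsf8, rose together in WT tumours. Tnfrsf8, a receptor of activated lymphocytes named here after its values were seen because its ligand is described, was at 1.16, 1.93, 0.529, 0.687 and 0.607 CPM in WT isotype and 3.04, 3.11, 2.77, 3.74 and 3.78 CPM in the WT combination (1.77 ± 0.34, edgeR adjusted p = 0.000475). Tnfsf8 went from 3.15, 2.395, 1.12, 1.43 and 1.43 CPM to 3.88, 9.39, 3.71, 4.98 and 8.80 CPM (1.71 ± 0.40, adjusted p = 0.00208). Neither gene's WT groups overlapped. In B-depleted tumours neither was called: Tnfrsf8 was at 0.887 (lowest), 1.08 (median) and 2.73 (highest) CPM under isotype and 1.68, 1.39, 1.26, 1.14 and 1.64 CPM under the combination. Tnfsf8 was at 1.20 (lowest), 2.23 (median) and 3.92 (highest) CPM and 1.89, 1.46, 0.744, 1.30 and 2.79 CPM, a change of -0.52 ± 0.40 (adjusted p = 0.568). These 2 genes rest on 9 to 148 counts in a library.

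**Figure D2:**
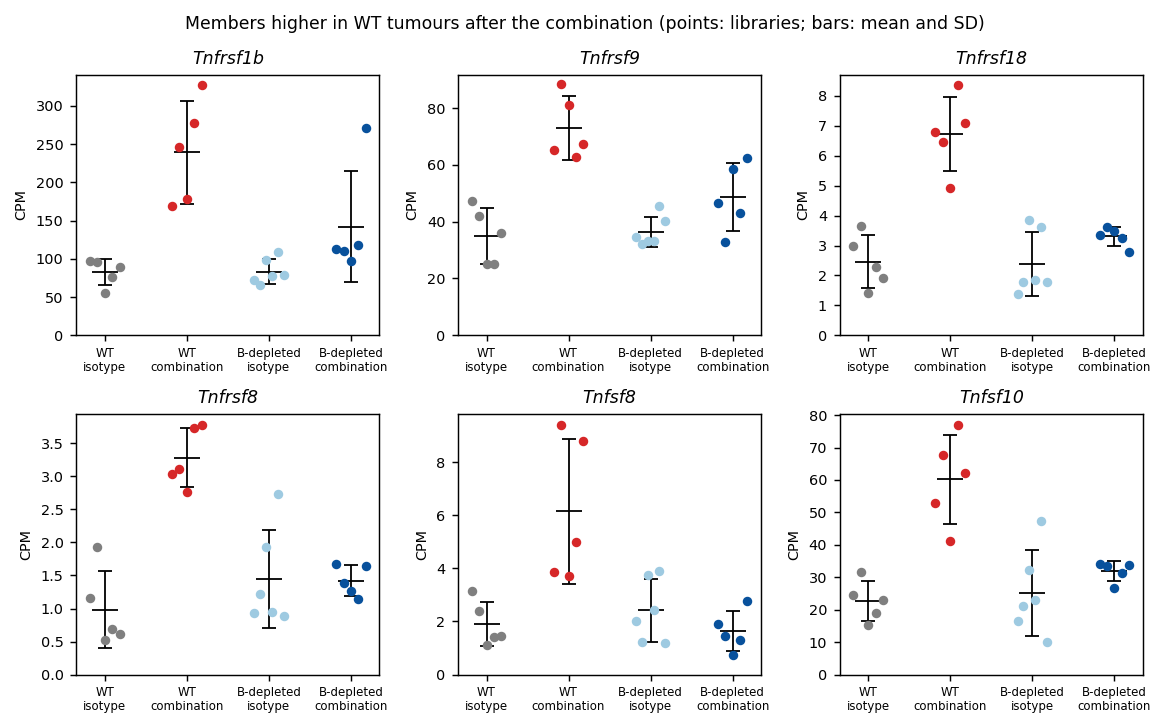
Level in CPM of 6 members that rose in WT tumours, by group, with 1 point per library and bars for the mean and SD. For all 6 the WT combination points lie above the WT isotype points, while the B-depleted groups overlap. The high B-depleted combination point of Tnfrsf1b, at 271 CPM, is replicate 5.

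Other costimulatory members were less uniform. Tnfsf15, which encodes TL1A, rose by 0.54 (edgeR adjusted p = 0.0314), a call lost without any of WT isotype replicates 1 (0.0533), 3 (0.0822), 4 (0.0621) and 5 (0.0507) or WT combination replicates 4 (0.0869) and 5 (0.0901). Its receptor Tnfrsf25 had a change of 0.88 that did not pass (adjusted p = 0.0564), at 1.04 ± 0.372 and 1.89 ± 0.921 CPM. Of the 9 members on chromosome 4, where Tnfrsf1b, Tnfrsf4, Tnfrsf8, Tnfrsf9, Tnfrsf14, Tnfrsf18, Tnfrsf25, Tnfsf8 and Tnfsf15 lie, Tnfrsf25 was the only one not called higher in this comparison. Over all tested members 17 of 30 were called higher, and over all genes 25%. All of these 9 except Tnfrsf1b are T-cell costimulators, and other genes of the chromosome were not compared, so a part of the location was not tested. Annotated genes on the opposite strand overlap Tnfrsf9, Tnfrsf18, Tnfsf9, Tnfrsf19, Tnfrsf13b, Tnfsf13b, Tnfsf12, Tnfsf13 and Tnfsfm13, and their reads may not be separated.

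Promoters of 4 members that moved in WT tumours are shown as examples that hold matches to motifs of factors that act downstream of TNF receptors or interferons. They are RefSeq sequences (GRCm38.p6) from 250 bases before to 50 after a transcription start, read 5′ to 3′ on the gene's strand, with matches in capitals. Searched on both strands were the NF-κB consensus, the interferon-stimulated response element core (GAAA, any 2 bases, then GAAA again) and the gamma-activated site TTCNNNGAA, and no matches of different motifs overlapped.
Tnfrsf1b, chr4:145246821-145247120, minus strand: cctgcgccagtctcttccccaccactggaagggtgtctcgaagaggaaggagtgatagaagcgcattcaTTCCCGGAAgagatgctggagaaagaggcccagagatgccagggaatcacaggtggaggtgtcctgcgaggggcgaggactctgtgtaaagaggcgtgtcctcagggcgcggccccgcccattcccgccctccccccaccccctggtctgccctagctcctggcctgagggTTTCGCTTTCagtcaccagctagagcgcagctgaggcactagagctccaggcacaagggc
Tnfrsf9, chr4:150927749-150928048, plus strand: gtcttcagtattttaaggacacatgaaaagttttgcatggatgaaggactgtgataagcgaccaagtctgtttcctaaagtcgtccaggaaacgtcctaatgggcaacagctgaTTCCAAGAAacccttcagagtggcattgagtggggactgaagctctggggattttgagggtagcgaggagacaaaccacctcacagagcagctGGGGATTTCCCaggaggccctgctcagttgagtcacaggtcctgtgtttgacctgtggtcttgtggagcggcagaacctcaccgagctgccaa
Tnfrsf14, chr4:154928028-154928327, minus strand: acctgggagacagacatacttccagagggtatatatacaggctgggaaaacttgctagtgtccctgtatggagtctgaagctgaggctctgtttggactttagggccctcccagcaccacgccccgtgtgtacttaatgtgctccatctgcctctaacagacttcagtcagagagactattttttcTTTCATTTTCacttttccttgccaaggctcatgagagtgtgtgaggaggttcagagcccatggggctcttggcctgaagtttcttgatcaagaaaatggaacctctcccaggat
Tnfrsf19, chr14:61046806-61047105, minus strand: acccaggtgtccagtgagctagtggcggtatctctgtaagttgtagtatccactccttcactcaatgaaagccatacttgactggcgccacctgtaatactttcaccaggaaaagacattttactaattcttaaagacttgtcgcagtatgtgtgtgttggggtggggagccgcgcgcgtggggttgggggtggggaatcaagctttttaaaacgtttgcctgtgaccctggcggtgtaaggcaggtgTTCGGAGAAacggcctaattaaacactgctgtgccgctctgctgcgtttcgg
Tnfrsf1b held a gamma-activated site match beginning at -181 and a response element match at -10. Tnfrsf9 held a gamma-activated site match at -136 and 2 NF-κB matches that overlap each other, at -43 and -42. Tnfrsf14 held a response element match at -64. Tnfrsf19, which fell, held a gamma-activated site match at -2, so matches were not limited to members that rose. Tnfrsf8 and Tnfrsf18, which rose, held matches too, to the NF-κB consensus at -168 and -167 and to the gamma-activated site at -99. So did members not called in WT tumours: Tnfrsf1a (gamma-activated site), Tnfrsf25 (that site and NF-κB) and Tnfsf13b (response element). Tnfrsf17, below the count filter, held a response element match. Tnfsf10, Tnfsf8, Tnfrsf4, Tnfrsf11a and Tnfrsf13b rose, and their entries held no match. Tnfrsf9, Tnfrsf19, Tnfrsf25 and Tnfsf13b each have another promoter entry, and it held no match. Entries were found for 25 of the 32 members, 29 promoters in all. A gamma-activated site match lay in 20.7% of these and in 8.3% of 32851 promoters, the response element in 13.8% and 3.44%, and the NF-κB consensus in 10.3% and 8.46%. These are counts of letters in a short window, with few members behind each share.

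TRAIL rose in WT tumours while its signalling receptor fell. Tnfsf10, the death ligand TRAIL, rose in WT tumours from 22.7 ± 6.24 to 60.2 ± 13.7 CPM (SD, n = 5 each), with no overlap (1.43 ± 0.29, edgeR adjusted p = 0.000734). Tnfrsf10b, the signalling TRAIL receptor of the mouse, was at 46.1, 47.1, 47.9, 47.8 and 52.0 CPM in WT isotype and 40.9, 29.1, 38.4, 23.4 and 25.3 CPM in the WT combination, all lower (-0.60 ± 0.12, adjusted p = 0.000611). In B-depleted tumours Tnfrsf10b was at 37.6 (lowest), 41.8 (median) and 46.7 (highest) CPM under isotype and 42.4, 42.5, 40.9, 45.2 and 41.3 CPM under the combination, a change of 0.03 ± 0.11. The decoy receptor Tnfrsf22 fell from 123, 153, 146, 104 and 150.1 CPM to 76.3, 60.0, 80.8, 24.3 and 23.5 CPM in WT tumours (-1.33 ± 0.28, adjusted p = 0.00109), lowest in replicates 4 and 5. With depletion Tnfrsf22 was at 103 (lowest), 137 (median) and 184 (highest) CPM under isotype and 111, 81.4, 92.6, 119.7 and 73.1 CPM under the combination.

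Tnfrsf22 lies in a cluster at chr7:143607659-143685872 with its close relatives Tnfrsf26 and Tnfrsf23, and an antisense gene overlaps all 3, so the split of reads among them is uncertain. Tnfrsf26 rose by 0.94 (edgeR adjusted p = 0.00859), against the direction of Tnfrsf22, and Tnfrsf23 had a change of 0.70 that did not pass (adjusted p = 0.143). Among receptors with a death domain, Tnfrsf1a, the main TNF receptor of most tissues, was nearly level at 168 ± 14.9 and 179.6 ± 9.59 CPM in the WT groups (0.12, adjusted p = 0.196). Tnfrsf21, or DR6, rose by 0.60 (adjusted p = 0.0269) with overlapping groups, a call lost in 5 of 21 refits without 1 library, those without WT isotype replicate 3 (0.0709), 4 (0.0664) or 5 (0.0571) or WT combination replicate 4 (0.0724) or 5 (0.0802).

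Osteoprotegerin was the most abundant member per length in WT isotype tumours, and it fell. Tnfrsf11b encodes this secreted decoy, which binds RANK ligand and TRAIL, and stood at 146 ± 49.6 CPM per kb of exon in WT isotype (SD, n = 5), followed by Tnfrsf1a at 64.8 ± 5.74 and Tnfrsf22 at 32.1 ± 4.98 CPM per kb. In the WT combination Tnfrsf11b was at 61.4 ± 28.3 CPM per kb, beside Tnfrsf1a at 69.3 ± 3.70 and Tnfrsf1b at 62.7 ± 17.6. In CPM it was at 359, 307, 656, 344 and 395 in WT isotype and 213, 189.8, 276, 85.4 and 100.5 in the WT combination, all lower (-1.24 ± 0.32, edgeR adjusted p = 0.00384). Without isotype replicate 3, the high one, the call held, as it did in all 21 refits. In the B-depleted groups it was at 287 (lowest), 418 (median) and 501 (highest) CPM under isotype and 253, 254, 243, 373 and 110.5 CPM under the combination, with lowest value in replicate 5 (-0.71 ± 0.30, adjusted p = 0.293). RANK itself, Tnfrsf11a, rose in WT tumours from 23.7 ± 7.63 to 48.0 ± 11.2 CPM (1.04, adjusted p = 0.0019). The ligand Tnfsf11 was at 2.54 ± 0.804 and 3.87 ± 2.10 CPM and did not pass (adjusted p = 0.277).

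Tnfrsf19, or TROY, an orphan receptor known from hair follicles and epithelial stem cells, was at 141, 156, 131, 113 and 114 CPM in WT isotype and 71.5, 58.6, 82.1, 29.3 and 23.1 CPM in the WT combination (-1.29 ± 0.27, edgeR adjusted p = 0.0009). Every combination library lay below every isotype library. In B-depleted tumours it was at 106 (lowest), 123 (median) and 134 (highest) CPM under isotype and 89.3, 87.3, 83.7, 100.4 and 42.8 CPM under the combination. There too the groups did not overlap, yet the change did not pass (-0.57 ± 0.25, adjusted p = 0.308).

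TWEAK rose in WT tumours and its receptor fell. Tnfsf12, or TWEAK, was at 12.8, 11.9, 11.0, 12.5 and 11.4 CPM in WT isotype and 15.5, 14.8, 14.9, 17.1 and 18.6 CPM in the WT combination, with no overlap (0.46 ± 0.11, edgeR adjusted p = 0.00249). Its receptor Tnfrsf12a, or Fn14, was at 46.1, 45.2, 47.3, 35.4 and 41.7 CPM and 37.1, 24.3, 38.8, 22.9 and 22.1 CPM, and fell (-0.55 ± 0.15, adjusted p = 0.00628) with replicates 1 and 3 of the combination inside the isotype range. Under depletion Tnfsf12 was at 8.45 (lowest), 9.64 (median) and 11.4 (highest) CPM with isotype and 9.45, 10.3, 9.01, 10.2 and 12.0 CPM with the combination. Tnfrsf12a was at 36.8 (lowest), 46.1 (median) and 51.3 (highest) CPM and 52.4, 43.8, 47.5, 47.2 and 35.2 CPM there, and neither gene was called. Tnfsfm13, annotated across both Tnfsf12 and Tnfsf13 on the same strand of chromosome 11, overlaps both gene spans, and how the counting treated reads in the overlap is unknown, so the values of all 3 are uncertain. Tnfsfm13 was at 1.05, 0.998, 1.53, 1.26 and 1.32 CPM in WT isotype and 2.42, 1.52, 2.14, 2.37 and 2.93 CPM in the WT combination (0.90 ± 0.25, adjusted p = 0.00605). In B-depleted libraries Tnfsfm13 was at 0.783 (lowest), 1.09 (median) and 1.28 (highest) CPM with isotype and 1.36, 1.54, 0.521, 0.812 and 1.07 CPM with the combination.

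**Figure D3:**
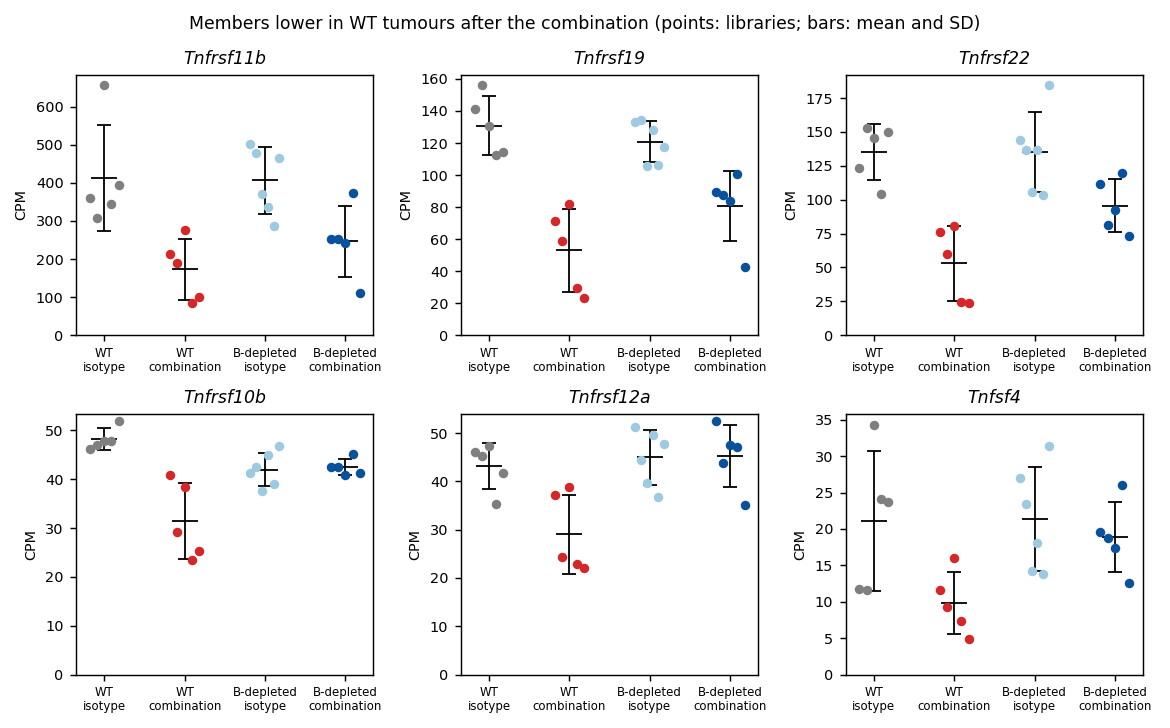
Level in CPM of the 6 members that fell in WT tumours, by group, with 1 point per library and bars for the mean and SD. WT combination replicates 4 and 5 are the lowest points for all 6, and the B-depleted combination mean lies above the WT combination mean for all 6.

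Markers of several cell types moved with these changes in WT tumours. All 10 T-cell markers rose (summed level 80.3 to 165.3 CPM in isotype and 387 to 619.9 CPM in combination libraries), as did 7 of 7 macrophage markers (695 to 1458 and 1684 to 3349 CPM) and Ptprc, carried by all leukocytes (median 324 and 1031 CPM, 1.60 ± 0.27). The 5 hepatocyte and hepatoma genes all fell (1146 to 4294 and 144.1 to 1248 CPM), and Cd3e, part of the T-cell receptor complex, rose by 1.91 ± 0.28. NK-cell markers rose in 3 of 4 cases (3.53 to 17.6 and 21.9 to 41.5 CPM) and fibroblast markers in 4 of 6 (2656 to 5029 and 7285 to 25970.0 CPM). Mitochondrially encoded transcripts fell in 4 of 6 cases (13420.0 to 18090.0 and 7963 to 15390.0 CPM), and 1 of 4 skeletal muscle genes rose (1.40 to 58.4 and 19.5 to 156 CPM). Other lists did not move as a whole. Of 5 neutrophil markers 1 rose, 1 fell and 3 did not pass, and 2 of 6 dendritic-cell markers rose. Of the plasma cell and immunoglobulin genes 0 of 8 tested were called, and of adipocyte genes 0 of 2. No T-cell or macrophage marker was at 0 in a library. In bulk tissue, fewer cells of a type and less RNA per cell cannot be told apart, and the part of cell content in the members' changes was not tested. The summed level of 4 Y-linked genes also separated the WT groups, at 47.6 to 79.2 CPM in isotype and 134.7 to 250.5 CPM in combination libraries. With it as a covariate 0 members were called in any comparison (edgeR), and 8 of the 23 WT changes turned sign. Of all genes, 24 were called higher and 60 lower in the WT response with this covariate. Between backgrounds under the combination 2 were higher and 1 lower, so the loss of calls was not particular to the family.

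In B-depleted tumours no member was called after the combination, where 0.341% of all genes were, 0.304% higher and 0.0367% lower. By edgeR 8 of 30 had an unadjusted p under 0.05, against 2734 of 19061 genes, and DESeq2 and limma voom also called 0. The smallest adjusted p was that of Tnfrsf1b (0.80 ± 0.25, 0.158), and without B-depleted combination replicate 5 its change was 0.40 (adjusted p = 0.538). The members' median change was 0.15 and that of all genes 0.02. Without the 3 doubted B-depleted libraries 1 member passed, Tnfrsf18 (1.01, edgeR adjusted p = 0.0345), a count given without the share of all genes called there. T-cell markers rose in this background as well, in 4 of 10 cases, from a summed 57.6 to 215.4 CPM to 229.7 to 321.9 CPM.

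**Figure D4:**
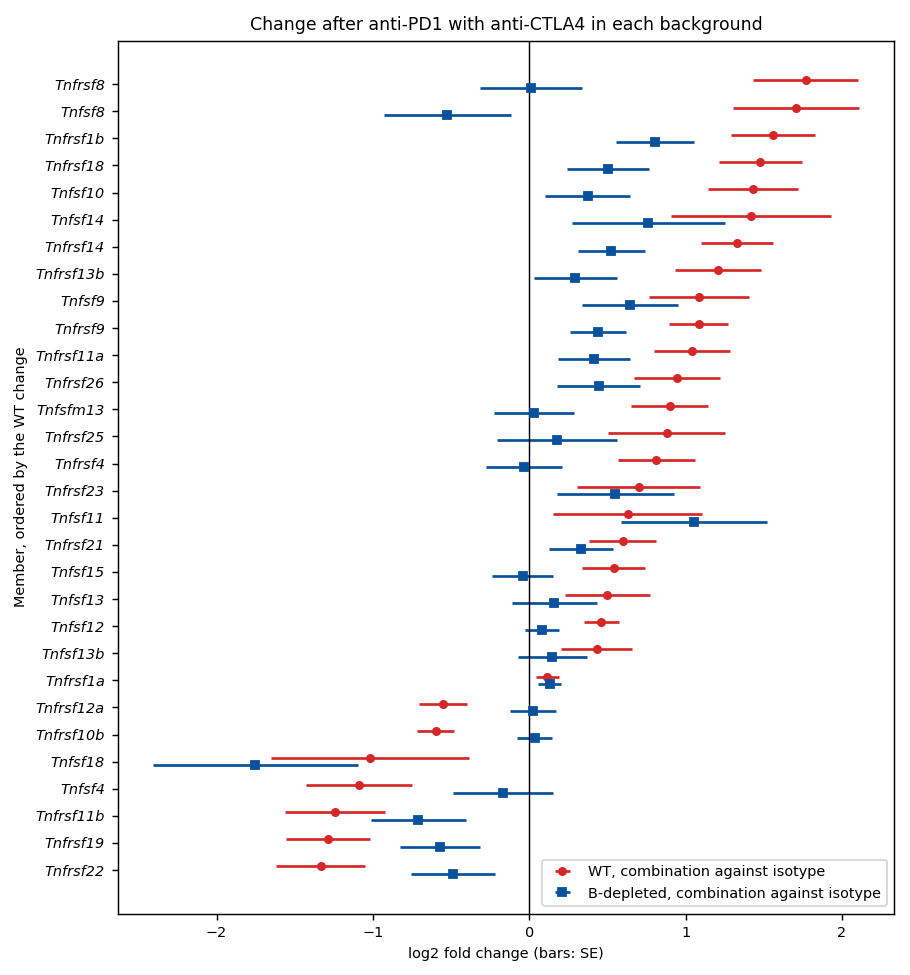
Log2 fold change after the combination for the 30 tested members in WT (red circles) and B-depleted tumours (blue squares), with bars for the SE, ordered by the WT change. For most members the blue square lies nearer to 0 than the red circle. Tnfsf8 and Tnfrsf8 lie at the top in WT and at -0.52 and 0.01 in B-depleted tumours, and Tnfrsf1a, Tnfsf11 and Tnfsf18 are the members with the larger change under depletion.

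The difference between the 2 responses was tested directly as an interaction, and no member passed (edgeR), with 0.0262% of all genes called, 0.0157% higher and 0.0105% lower. At an unadjusted p under 0.05 there were 13 of 30 members against 4881 of 19061 genes. Tnfsf8 had the smallest p, a difference of -2.23 ± 0.57 (adjusted p = 0.0746), then Tnfrsf10b (0.63 ± 0.16, 0.0761) and Tnfrsf8 (-1.76 ± 0.47, 0.0786). DESeq2 called these 3 (adjusted p = 0.00964, 0.0134 and 0.0147), where it called 799 of all genes higher and 411 lower. By limma voom 0 members were called, with 4 of all genes higher and 2 lower. Leaving out 1 library gave 0 to 6 members: 2 without WT combination replicate 1, 4 without WT combination replicate 3 and 6 without B-depleted combination replicate 5. Tnfsf8 and Tnfrsf10b were among them each time. Without all 3 doubted B-depleted libraries 0 members were called. The share of all genes called in each of these refits is not given here, so the counts do not set the members apart. Over all the settings tried the adjusted p of Tnfsf8 ran from 0.00964 to 0.526. The median interaction was -0.54 over members and 0.01 over all genes.

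Under isotype alone, depletion moved no member past the threshold, and 0% of all genes were called. A single member, Tnfsf12, had an unadjusted p under 0.05 (-0.30 ± 0.11, adjusted p = 1), against 563 of 19061 genes, and DESeq2 and limma voom called 0 members, as did edgeR without the 3 doubted libraries. The CPM ranges of these 2 groups overlapped for all 32 members. Overlap was not counted over all genes, so this does not set the members apart.

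Under the combination, B-depleted tumours differed from WT tumours in 15 members, 11 lower and 4 higher, where 29.1% of all genes were called, 13.5% lower and 15.5% higher. This comparison shares its WT combination libraries with the WT response above, so the 2 sets of changes are not independent. The largest group was T-cell costimulators, which is also the longest role list, with 6 of 12 lower and 1 higher. Tnfsf12 had the smallest p (-0.68 ± 0.11, edgeR adjusted p = 0.00397), then Tnfsf8 (-1.91 ± 0.41, 0.00766), Tnfsfm13 (-1.12 ± 0.26, 0.00876) and Tnfrsf18 (-1.04 ± 0.26, 0.0119). For Tnfsf12, Tnfsf8 and Tnfrsf18 all B-depleted libraries lay below all WT libraries. Tnfrsf4, Tnfrsf8, Tnfrsf9, Tnfrsf14 and Tnfsf10 were lower without overlap too, by log2 changes of -0.97, -1.22, -0.60, -0.70 and -0.93. Tnfrsf1b (-0.76, adjusted p = 0.0374) and Tnfrsf13b were lower with overlap.

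The members higher in B-depleted combination tumours were Tnfrsf12a (0.62 ± 0.15, edgeR adjusted p = 0.0114), Tnfrsf10b (0.42, 0.017), Tnfrsf22 (0.83, 0.0345) and Tnfsf4 (0.92, 0.0479). For Tnfrsf10b all B-depleted libraries lay above all WT libraries. All 5 hepatocyte and hepatoma genes were higher in the B-depleted libraries, and 8 of 10 T-cell, 4 of 4 regulatory T-cell and 6 of 7 macrophage markers were lower; their part was not tested. The count of 15 fell to 8 and 7 without WT combination replicates 4 and 5 and to 9 without B-depleted combination replicate 1, 3 or 4, and was 21 without the 3 doubted B-depleted libraries. These counts stand without the share of all genes called in each refit, so they do not set the members apart from other genes. Tnfsf12, Tnfsf8, Tnfsfm13, Tnfrsf18, Tnfrsf4, Tnfrsf8 and Tnfrsf12a kept their calls in all 21 refits without 1 library, while Tnfsf4 kept its call in 8 (highest adjusted p 0.13). Tnfrsf1b and Tnfrsf14 kept theirs in 14, Tnfrsf22 in 15, Tnfrsf9 in 16, Tnfsf10 in 18 and Tnfrsf10b in 19. Each of these 6 lost its call without WT combination replicate 5 (0.121, 0.0835, 0.0905, 0.0507, 0.054 and 0.0554, in that order). The other refits that lost one of the 6 left out WT combination replicate 2 or 4 or B-depleted combination replicate 1, 2, 3 or 4.

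B-cell factors and their receptors were examined because the study removed B cells. BAFF, encoded by Tnfsf13b and made mainly by myeloid and stromal cells, was at 19.8, 23.6, 8.76, 13.5 and 16.2 CPM in WT isotype, 20.6, 22.4, 19.5, 22.4 and 23.5 CPM in the WT combination, 8.45 (lowest), 13.5 (median) and 19.9 (highest) CPM in B-depleted isotype and 16.9, 15.8, 14.4, 12.8 and 15.4 CPM in B-depleted combination libraries. Depletion was not accompanied by a called change of BAFF under isotype (-0.26 ± 0.22, edgeR adjusted p = 1). Under the combination its level lay lower in all 5 B-depleted libraries, a difference that did not pass (-0.54 ± 0.23, adjusted p = 0.0764). APRIL, encoded by Tnfsf13, was lower in CPM, at 1.38, 1.06, 1.41, 0.974 and 1.16 in WT isotype and 2.14, 1.71, 1.26, 1.60 and 1.69 in the WT combination. With depletion it was at 0.534 (lowest), 1.13 (median) and 1.65 (highest) CPM under isotype and 1.68, 1.39, 1.56, 0.650 and 0.857 CPM under the combination, and it was called in no comparison.

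Of the receptors, Tnfrsf13b, which encodes TACI, was the highest in CPM. It was at 6.40, 5.72, 2.82, 5.04 and 4.74 CPM in WT isotype and 8.72, 12.6, 7.55, 9.96 and 17.3 CPM in the WT combination, with no overlap (1.21 ± 0.28, edgeR adjusted p = 0.00169). B-depleted libraries still held 2.88 (lowest), 4.94 (median) and 7.95 (highest) CPM under isotype and 5.57, 5.55, 5.06, 6.66 and 9.28 CPM under the combination, including libraries with Ms4a1 at 0. The difference between backgrounds under the combination (-0.81 ± 0.27, adjusted p = 0.034) was lost in 7 of 21 refits, those without WT combination replicate 2 (0.069), 4 (0.0608) or 5 (0.123) or B-depleted combination replicate 1 (0.0766), 2 (0.0771), 3 (0.0856) or 4 (0.061).

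Tnfrsf13c, the BAFF receptor of mature B cells, was below the count filter and was compared by a 2-sided exact permutation test of group means. It was at 0.166, 0.333, 0.176, 0.115 and 0.166 CPM in WT isotype and 0.450, 1.59, 0.566, 1.36 and 1.63 CPM in the WT combination, with no overlap. B-depleted libraries were at 0.0626 (lowest), 0.227 (median) and 0.534 (highest) CPM under isotype and 0.315, 0.231, 0.0744, 0.0812 and 0.286 CPM under the combination, all of the latter below the WT combination. Each of these differences had an exact permutation p of 0.00794, the smallest that 252 splits allow, and an adjusted p of 0.0212 over 8 tests. Under depletion the combination made no detectable difference (exact permutation adjusted p = 0.701). Fitted without the filter, edgeR gave changes of 2.49 (adjusted p = 0.00101) and -2.47 (0.00991) for the same contrasts. Tnfrsf17, or BCMA, of plasma cells, had 2 counts over the WT isotype group, 13 over the WT combination, 4 over B-depleted isotype and 0 in 62.3 M counts of B-depleted combination, which allows up to 0.0482 CPM over that group for counting error alone. Per library that was 0.110, 0, 0, 0 and 0 CPM in WT isotype, 0.281, 0.0634, 0.0629, 0.0593 and 0.326 CPM in the WT combination and 0 (lowest), 0.0278 (median) and 0.104 (highest) CPM in B-depleted isotype. Only the difference between WT and B-depleted combination libraries, which did not overlap, passed for Tnfrsf17 (exact permutation adjusted p = 0.0212), that of the WT response being 0.0635. It rests on 1 to 5 counts in a WT combination library. The B-depleted combination libraries were also shallower, at 9.52 to 14.01 M counts against 15.35 to 17.78 M. Fitted without the filter, edgeR gave -4.355 for this difference, with an adjusted p of 0.05, at the threshold.

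B-cell markers rose in WT tumours, where Tnfrsf13b and Tnfrsf13c were higher too. All 6 markers that were tested of 8 rose there, the summed level being 8 to 17.1 CPM in isotype and 32.4 to 72.8 CPM in combination libraries. In B-depleted libraries it was 5.51 to 15.0 CPM under isotype and 12.9 to 27.1 CPM under the combination, mostly Cd22, and 0 of the 6 were called. Tnfrsf13c did not go up with that sum, its mean being 0.2393 CPM under isotype and 0.1975 CPM under the combination. The part of the B-cell markers in the receptors' levels was not tested.

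**Figure D5:**
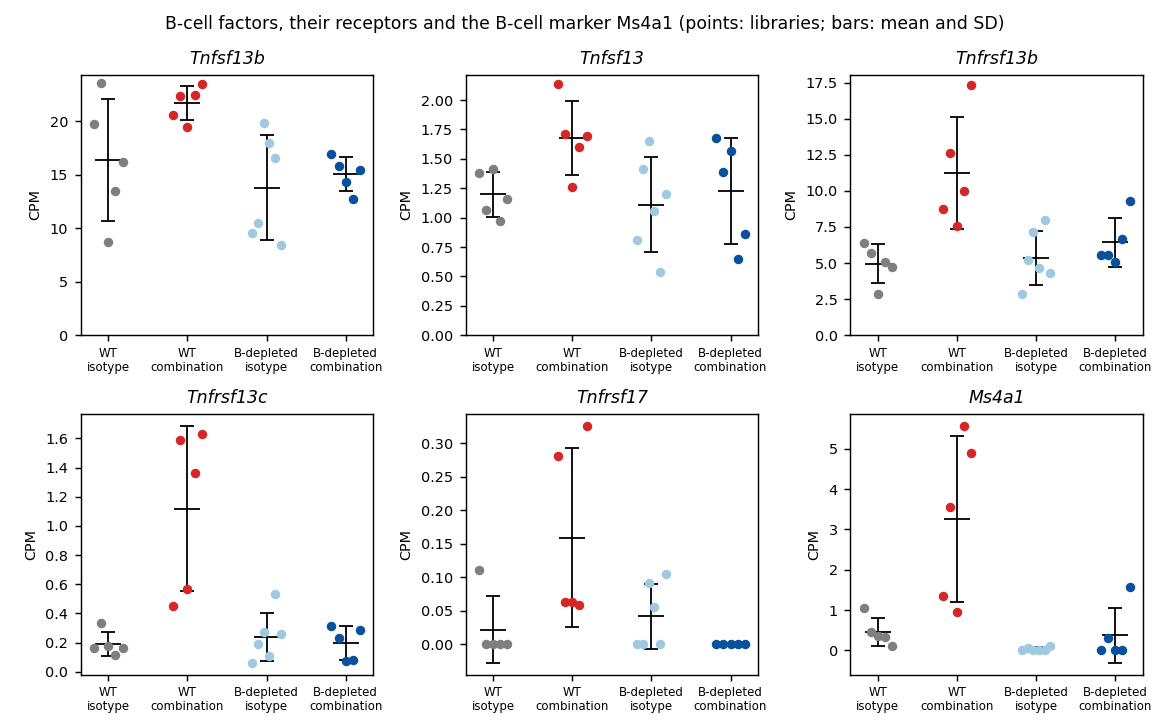
Level in CPM of BAFF (Tnfsf13b), APRIL (Tnfsf13), their receptors and the B-cell marker Ms4a1, by group, with 1 point per library and bars for the mean and SD. The means of Tnfrsf13c and Ms4a1 are highest in the WT combination, Tnfrsf17 is at 0 in all 5 B-depleted combination libraries, and Tnfrsf13b and Tnfsf13b are present in every library.

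Family genes under other symbols were listed separately: 15 genes, of which 12 were tested. In WT tumours 8 rose and 2 fell, with a median of 0.93, where 25% of all genes were called higher and 25% lower. Fasl, the death ligand of killer cells, rose by 1.85 ± 0.29 (edgeR adjusted p = 0.000113), Tnf by 1.87 ± 0.39 (0.000903), Cd27 by 2.20 and Cd40 by 0.99. The lymphotoxin-β receptor gene Ltbr fell by 0.38 on the log2 scale and the ectodysplasin receptor Eda2r by 0.75. In B-depleted tumours Fasl was the only 1 of the 12 called (1.39 ± 0.27, adjusted p = 0.0312). Between backgrounds under the combination Lta (-1.58), Cd27 (-1.04) and Cd40 (-0.74) were lower and Ltbr (0.34) higher in B-depleted tumours, 4 of 12 where 29.1% of all genes were called.

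Of 38 downstream adaptors, kinases and NF-κB genes, 14 rose, 5 fell and 19 did not pass in WT tumours, with a median of 0.17, and 50% of all genes were called there. The adaptor Traf1 rose by 1.09 and the necroptosis kinase Ripk3 by 1.21, while the adaptor Traf4 (-0.81) and Nfkb2 (-0.37) fell. The inhibitors Nfkbia (0.17) and Tnfaip3 (0.42), both NF-κB targets, did not pass. In B-depleted tumours 0 of 38 were called by edgeR, with 5 at an unadjusted p under 0.05. Under the combination 4 were lower in B-depleted tumours, Ripk3 (-0.72), Traf5 (-0.48), Cyld (-0.32) and Ikbkb (-0.24), and 3 were higher, Traf4 (0.73), Nfkb2 (0.48) and Map3k7 (0.22). These 7 of 38 are a smaller share than the 29.1% of all genes called in that comparison.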

How the data were processed

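Hepa1-6 tumour RNA libraries (TruSeq Stranded mRNA, per the labels) gave 1 deposited table of raw read counts. Per the submitters' processing notes, the authors used cutadapt 2.4, STAR 2.7.2a and GRCm38. No source used here names the counting program, its strand setting or the annotation release, so reads of a gene and an overlapping antisense gene may not be separated. Groups come from the sample titles. Identifiers were matched to GENCODE M21, which gave symbols for 55227 of 55487 rows, and the other 260 rows (0.0183% of counts) were kept in the fits.

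In R 4.3.3, genes were kept by filterByExpr, scaled by TMM (factors 0.953 to 1.029) and fitted with edgeR 4.0.16 (robust quasi-likelihood, 21 libraries, 4 groups, no covariates, common biological coefficient of variation 0.246). In the shallowest library 9.52 counts make 1 CPM. CPM per kb uses the summed length of merged exons. DESeq2 1.42.0, limma 3.58.1 (voom), no filter, only the groups compared, thinning to the lowest total, a replicate block, the Y-linked covariate and leaving out each library were alternatives, and 2 further ones that leave out libraries were added after the data were seen. The members and lists were chosen with earlier results of these data known. By the rule for named genes, values in every library (lowest, median and highest for the group of 6) are given for up to 4 called members of smallest p per comparison and direction, the B-lineage members, Tnfrsf4, Tnfrsf9 and Tnfrsf18 with their ligands, and the 2 of smallest interaction p.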

Additional observations from a re-analysis of the deposited data

Results flagged for a closer look

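Within each group of libraries the highest and lowest values of the 30 tested members were compared with the spread of the rest (Dixon's gap over range on CPM, 95% level), 120 groups in all. Chance flags about 1 in 20 groups, and 8 values stood apart. Of these, 6 were in B-depleted combination replicate 5, the library of that group with the most Ms4a1 transcripts: Tnfrsf1b at 271 CPM (nearest library 117.5), Tnfrsf21 at 61.9 CPM (39.1), Tnfrsf23 at 44.6 CPM (14.4), Tnfrsf26 at 34.8 CPM (14.6), Tnfsf11 at 9.21 CPM (2.92) and Tnfsf14 at 7.85 CPM (1.41). The same library had the highest summed fibroblast markers of its group, 24350 CPM, where the group's median was 5224 CPM, and the highest neutrophil markers (705 CPM, median 40.4 CPM). Their part in these values was not tested. Tnfrsf11b stood at 656 CPM in WT isotype replicate 3 (nearest 395 CPM), and Tnfrsf23 at 25.1 CPM in WT combination replicate 5 (nearest 16.1 CPM).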

How the results depend on the processing

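The 23 WT calls and the 15 calls between backgrounds under the combination kept their direction under DESeq2, limma voom, no filter, the groups compared alone, thinning, both replicate blocks, both alternatives added later and every refit without 1 library. With the Y-linked covariate both counts were 0, where 24 of all genes were called higher and 60 lower in the WT response. The WT changes of Tnfrsf11a (-0.19), Tnfrsf11b (0.23), Tnfrsf12a (0.10), Tnfrsf13b (-0.20), Tnfrsf21 (-0.50), Tnfrsf4 (-0.031), Tnfsf15 (-0.10) and Tnfsf4 (0.36) turned sign, none past the threshold. The covariate itself differs between the groups. Without 1 library the WT count ran from 19 to 24, that between backgrounds under the combination from 7 to 21, and the interaction from 0 to 6. Without a filter 9 members were called between backgrounds under the combination, where 1930 of all genes were called higher and 1413 lower. DESeq2 called 3 members for the interaction. Of the alternatives added later, leaving out WT isotype replicates 1 and 2 gave 8 members for the interaction, and leaving out the 3 B-depleted libraries gave 1 in the B-depleted response. Member counts from refits that leave out libraries or add a replicate block stand here without the share of all genes called in each. They therefore do not set the members apart from other genes. Of all genes, 65 were called in the B-depleted response by edgeR and 397 by DESeq2, and for the interaction 5 and 1210. A replicate block by title number gave 23 and 18 members in the WT response and between backgrounds under the combination, and one by description code 21 and 15. Same-numbered libraries correlated above 0.1 in 9 of 30 pairs by title number and 7 of 27 by description code. Differently numbered libraries were not correlated for comparison, so this cannot decide whether the numbers pair the samples. The interaction could not be refitted on 2 groups. Members near 1 CPM rest on about 9.52 to 19.17 counts a library, which limits Tnfsf13, Tnfsf18, Tnfrsf25 and Tnfsfm13. The same limit holds in WT isotype for 3 members called in the WT response. These are Tnfrsf8 (9 to 29 counts a library), Tnfsf9 (16 to 31) and Tnfsf14 (14 to 35).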
